A study of Mus musculus with 6 samples.

Results

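Expression of 10 β cell maturity and dedifferentiation genes was measured in clonal MIN6 cell lines with and without deletion of *Snd1*. *Ucn3* and *Syt4* mark mature β cells, whereas *Neurog3*, *Sox9*, *Sox4*, *Pax4* and *Hes1* belong to pancreatic or endocrine progenitors, and *Aldh1a3*, *Gast* and *Cd81* have been described in dedifferentiated or immature β cells. The genes were chosen by these known roles, and they are 10 of the 53801 mouse genes listed for each clone. Levels are given in TPM, the length-scaled share of transcripts that sums to 1000000 in each clone. Testing required an average of 0.5 TPM or more over all clones, which 7 of the 10 genes passed, while *Aldh1a3*, *Neurog3* and *Sox9* were under it.

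MIN6 is a transformed mouse insulinoma line used as a model of the β cell. The parental MIN6 cells of both groups expressed the Cas9 nuclease, received a guide RNA by lentivirus and were selected with puromycin, after which single cells were grown into clonal lines. The 3 control clones carry Cas9 targeted to an intron of *Snd1*, a gene that encodes a coregulator of transcription. The 3 *Snd1* KO clones carry Cas9 targeted to *exon 2* of the same gene. Each library came from 1 clone, and both *exon 2* guides were used among the *Snd1* KO clones. The p-values therefore set the difference between the groups against the spread between clones. In a single clone, effects of clone, guide and genotype cannot be told apart, and between the groups guide and genotype cannot.

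β cells acquire regulated insulin release after birth, when they begin to produce the peptide urocortin 3 and raise synaptotagmin 4, a vesicle protein. During development the order is reversed: Notch signaling through HES1 holds progenitors marked by SOX9 back, NEUROG3 then commits cells to the endocrine lineage, and PAX4 and SOX4 act in the cells that follow. In diabetic animals β cells can lose mature identity, and ALDH1A3, gastrin and progenitor factors have then been found in them.

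The clones kept β cell expression. With each exonic base of a gene counted once, the mean level over all clones was 30851 TPM for *Ins2*, 26717 TPM for *Iapp*, 3476 TPM for *Ins1*, 1177 TPM for *Pdx1* and 586 TPM for *Nkx6-1*. The levels that follow are TPM as deposited, which divide by the summed length of all transcripts of a gene. They cannot be set against the means above. *Snd1* had between 112 and 119 TPM in control clones 1, 2 and 3, against 14.7, 57.1 and 19.9 TPM in the *Snd1* KO clones. Markers of acinar, PP, endothelial and leukocyte cells summed to at most 2.92 TPM per list in any clone, and those of fibroblasts to at most 4.34 TPM. The duct list, mostly *Krt7*, ranged from 2.88 to 88.6 TPM, the α cell list, mostly *Ttr*, from 3207 to 20385 TPM and the δ cell list from 4.32 to 40.2 TPM. Depth was between 25789728 and 32968713 reads on genes per clone, recovered from the TPM values as described under the processing. The paper reports fewer reads per library, a difference whose reason was not tested. Over the 11368 genes that averaged 5 TPM or more, Control 3 was closer to *Snd1* KO 3 (Pearson r = 0.955) than to Control 1 (0.943) or Control 2 (0.936), so the results are also given with single clones left out.

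None of the 7 tested genes passed an adjusted p-value under 0.05 and a 2-fold change in limma, where 1 of 17823 genes did (0.00561%). At an unadjusted p-value under 0.05 the count was 0 of 7, compared with 1419 of 17823 genes (7.96%), and voom on the recovered reads also gave 0 of 7 at either limit. Without *Snd1* KO 1, *Gast* and *Hes1* had an unadjusted p-value under 0.05 (2 of 7, where all genes gave 14.3%), as they did with clones weighted by estimated quality (32.6% of all genes), and with a replicate block *Cd81* did (1 of 7, where all genes gave 6.7%). A single gene of the 7, *Ucn3*, had each of its *Snd1* KO values above all control values (9.69% of all tested genes), and 0 of 7 were lower throughout (4.03% of all tested genes). *Ucn3* passed the filter only through its level in *Snd1* KO 1, and its other *Snd1* KO values rest on 5 reads each, so its count is not read against that share. Log2 fold changes were above 0 for 5 of 7 genes and for 57.3% of all tested genes. The 5 include *Ucn3*, tested only through that clone, so this count is not read against the share either. Single clones differed most in 3 of the genes. The range of log2(TPM + 1) over the clones was 4.35 for *Cd81* and 3.87 for *Gast*, wider than in 99.6% and 99.2% of tested genes, for which the median range was 0.74. It was 5.06 for *Ucn3*, through the clone that brought the gene past the filter.

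**Figure D1:**
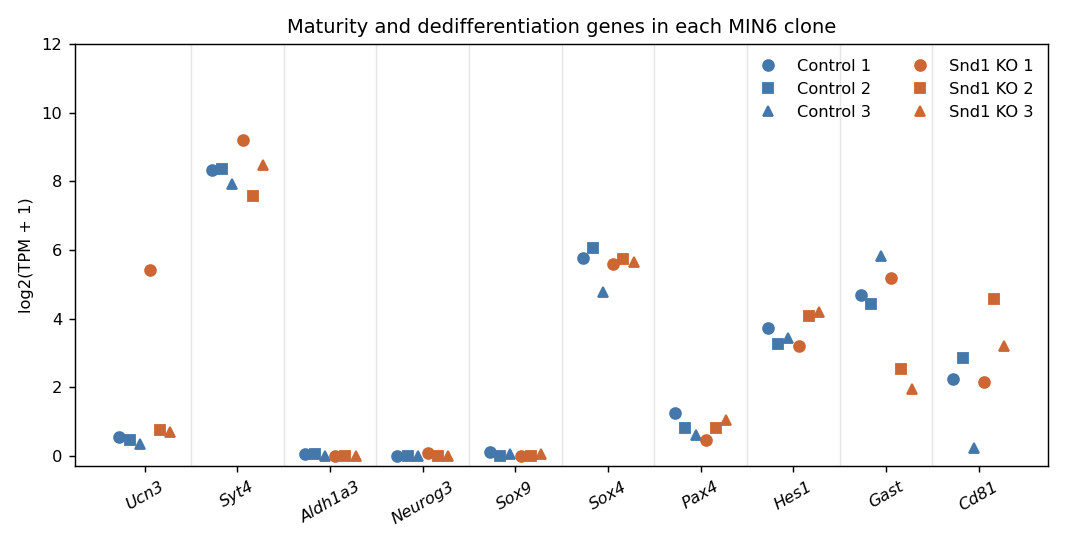
Level of each of the 10 genes in each clone, as log2(TPM + 1) on the vertical axis, with control clones in blue and *Snd1* KO clones in orange (1 point per clone). *Ucn3* is near 0 in all clones but *Snd1* KO 1, *Gast* is lowest in *Snd1* KO 2 and *Snd1* KO 3, and *Cd81* is lowest in Control 3. *Aldh1a3*, *Neurog3* and *Sox9* are at or near 0 in every clone.

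Since *Ucn3*, *Gast* and *Cd81* varied most between clones, the 250 bases before their RefSeq start sites are shown. They are from build GRCm38.p6, on the strand of the gene, at chr13:3945350-3945599 (minus strand) for *Ucn3*, chr11:100334157-100334406 (plus) for *Gast* and chr7:143052500-143052749 (plus) for *Cd81*. Capitals mark matches, on either strand, to TAAT, the core recognized by homeodomain factors, to CAGATG, an E-box, and to TATAAA, the TATA box.
Ucn3: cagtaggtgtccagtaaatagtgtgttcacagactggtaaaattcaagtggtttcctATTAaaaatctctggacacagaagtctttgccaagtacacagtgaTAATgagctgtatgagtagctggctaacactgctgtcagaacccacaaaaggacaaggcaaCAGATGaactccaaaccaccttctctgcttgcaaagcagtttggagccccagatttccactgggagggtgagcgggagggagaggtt
Gast: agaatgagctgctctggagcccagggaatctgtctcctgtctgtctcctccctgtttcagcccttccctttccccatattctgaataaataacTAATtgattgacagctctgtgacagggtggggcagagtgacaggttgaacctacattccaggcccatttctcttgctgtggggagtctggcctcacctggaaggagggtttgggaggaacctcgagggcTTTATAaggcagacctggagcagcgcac
Cd81: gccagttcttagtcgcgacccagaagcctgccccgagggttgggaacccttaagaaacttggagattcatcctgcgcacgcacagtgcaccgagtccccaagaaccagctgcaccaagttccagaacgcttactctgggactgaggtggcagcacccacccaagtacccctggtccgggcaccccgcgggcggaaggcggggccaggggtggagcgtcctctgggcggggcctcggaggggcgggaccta
The *Ucn3* sequence holds TAAT 193 bases before the start, as its reverse ATTA, and again 148 bases before it, and an E-box 87 bases before it. The *Gast* sequence holds TAAT 157 bases and a TATA box, as its reverse TTTATA, 28 bases before the start. No match was found in the *Cd81* sequence, which had a GC content of 65.6%, compared with 53.2% for *Gast*, 46.4% for *Ucn3* and a median of 52.4% over all RefSeq promoters. TAAT occurs in 54.9% of the 32851 promoter sequences, CAGATG in 14.4% and TATAAA in 12.4%. A match to TAAT is thus common, the other motifs are less so, and all matches describe the sequence only. RefSeq promoter sequences were found for 5 of the 10 genes, the other two being *Neurog3*, with 0 matches, and *Sox4*, with TAAT at 128 and 125 bases.

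*Ucn3* (ENSMUSG00000044988, chromosome 13 from 3940688 to 3945349, minus strand) encodes urocortin 3, a peptide that mature mouse β cells release together with insulin. It had 0.472, 0.373 and 0.273 TPM across the control lines (4, 3 and 2 reads). Across the *Snd1* KO lines the levels were 41.6, 0.680 and 0.635 TPM (317, 5 and 5 reads). A single clone was thus high, and the other 5 clones lay between 2 and 5 reads. The read rate of *Snd1* KO 1 was 110.0 times that of the pooled control clones, with a 95% exact interval from 57.2 to 243, whereas that of *Snd1* KO 2 and *Snd1* KO 3 together was 1.74 times that of control, from 0.635 to 4.84. These intervals, like those for *Gast* and *Cd81*, cover counting error only, in clones picked by their levels. They take each recovered read as independent, and are too narrow if both reads of a pair were counted. Group means were 0.373 ± 0.0995 TPM for control and 14.3 ± 23.6 TPM for *Snd1* KO (± SD of 3 clones). The log2 fold change of TPM + 1 was 1.84 (95% interval −1.09 to 4.76, limma adjusted p = 0.711), and it was 0.27 without *Snd1* KO 1. Although groups did not overlap, the exact two-sided permutation test gave p = 0.1, below which this test cannot go with 3 clones per group. *Snd1* KO 1 lay above the next clone by 4.66 in log2(TPM + 1).

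Other genes with this pattern were looked for among the same 11368 genes, by the root mean square difference of centered log2(TPM + 1) over the 6 clones. The nearest was *Nqo1* (difference 0.28), which encodes a quinone reductase induced by oxidative stress. It had 0.899, 0.592 and 0.520 TPM in control against 69.0, 0.518 and 0.604 TPM in the knockout clones. *Nptx2*, for the secreted protein neuronal pentraxin 2, came next (0.62) with 15.2, 7.39 and 13.9 TPM in control against 158, 8.88 and 6.21 TPM in the knockout clones. *H2-M10.1*, a nonclassical major histocompatibility gene, differed by 0.63 and had 2.65, 0.0797 and 1.84 TPM in control against 68.6, 3.75 and 1.06 TPM in the knockout clones. That all 3 genes were highest in *Snd1* KO 1 follows from how they were chosen. Genes at least 4-fold above every other clone, in TPM + 1, were found in each line, 47, 46 and 51 in *Snd1* KO clones 1 to 3 and 15, 14 and 21 in control clones 1 to 3, out of 17823.

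**Figure D2:**
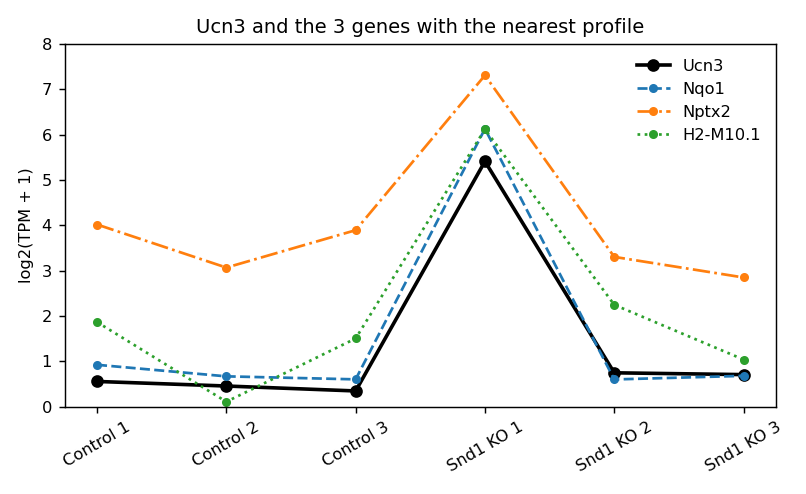
*Ucn3* and the 3 genes with the most similar profile across the 6 clones, as log2(TPM + 1). All 4 lines peak in *Snd1* KO 1, with 41.6 TPM for *Ucn3* and 69.0 TPM for *Nqo1*, while *Nptx2* has a higher level than the others in the remaining clones. The lines join clones for reading only.

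The other genes of the urocortin system were low, apart from the receptor gene *Crhr1*. *Ucn* and *Crh*, for related peptides, were at 0 in all 6 clones. *Crhr2*, the receptor for urocortin 3, had at most 0.0536 TPM in any clone. The receptor gene *Crhr1* had 188, 170.0 and 197 TPM in control against 139.6, 162 and 167 TPM in the knockout clones, so that all *Snd1* KO clones lay below all control clones, by a log2 fold change of −0.25 (limma adjusted p = 0.607). *Crhr1* was named after its values were seen.

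*Syt4* (ENSMUSG00000024261, chromosome 18, minus strand) encodes synaptotagmin 4, a vesicle protein that changes the calcium dependence of insulin release as β cells mature. It had 318, 330.1 and 243 TPM across the control lines (7105, 7006 and 4697 reads). Across the *Snd1* KO lines the levels were 587, 190.1 and 356 TPM (11808, 3687 and 7409 reads). The *Snd1* KO group held both the highest and the lowest clone, and the control clones lay between them. Group means were 297 ± 47.0 and 378 ± 199 TPM (± SD of 3 clones), a log2 fold change of 0.21 (95% interval −0.72 to 1.14, limma adjusted p = 0.903), with p = 0.7 in the exact permutation test. Without *Snd1* KO 1 the sign was reversed (−0.18), and without *Snd1* KO 2 the value was 0.63. *Syt4* was thus high in every clone while *Ucn3*, the other maturity gene, was near 0 in 5 of 6.

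The genes with profiles nearest to *Syt4* were *Gm31793* (difference 0.11), *Pde1c* (0.13) and *Gm10222* (0.16). *Pde1c* encodes a calmodulin-dependent phosphodiesterase that degrades cAMP and cGMP, and had 17.7, 20.7 and 18.4 TPM in control against 41.9, 12.4 and 23.0 TPM in the knockout clones. *Gm31793* and *Gm10222* rest on at most 34 reads in a clone, and reads of *Gm10222* can be shared with mitochondrial sequence. Of the 16 other synaptotagmin genes, 10 were tested, with 4 higher and 6 lower in *Snd1* KO clones, a median log2 fold change of −0.03 and 0 at an unadjusted p-value under 0.05 in limma. *Syt5*, chosen after its values were seen, had 159, 144 and 108 TPM in control against 213, 39.1 and 60.0 TPM in the knockout clones, again with *Snd1* KO 1 highest and *Snd1* KO 2 lowest (log2 fold change −0.76, limma adjusted p = 0.751).

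*Aldh1a3*, *Neurog3* and *Sox9* were at or under the floor of detection, taken as 3 reads, in every clone. *Aldh1a3* (ENSMUSG00000015134, chromosome 7 from 66390890 to 66427517, minus strand), for a retinaldehyde dehydrogenase, had 2, 2 and 0 reads in control clones and 0 reads in each *Snd1* KO clone. *Neurog3* (ENSMUSG00000044312, chromosome 10 from 62133090 to 62134763, plus strand), for the endocrine lineage transcription factor, had 1 read in *Snd1* KO 1 and 0 reads elsewhere. *Sox9* (ENSMUSG00000000567, chromosome 11 from 112782224 to 112787760, plus strand), for a progenitor and duct cell factor, had 2, 0 and 1 reads in control against 0, 0 and 1 in the knockout clones. No difference was detectable at this depth, and no fold change was taken. In these libraries 3 reads correspond to at most 0.0823 TPM of *Aldh1a3*, 0.181 TPM of *Neurog3* and 0.147 TPM of *Sox9*. Exact two-sided permutation tests of log2(TPM + 1) gave p = 0.4, 1.0 and 0.4. The profile of 4 reads in *Aldh1a3* was too sparse for a useful search, and its nearest genes *Lrsam1*, *Ccdc115* and *Bag6* were only genes with almost equal levels in all clones (differences of at most 0.0165).

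*Sox4* (ENSMUSG00000076431, chromosome 13 from 28948919 to 28953713, minus strand) encodes a factor required for formation of endocrine cells. It had 53.5, 65.1 and 26.7 TPM in control clones 1, 2 and 3, against 46.8, 52.2 and 49.0 TPM in the *Snd1* KO clones. Control 2 was highest, Control 3 was lowest and all *Snd1* KO clones fell between them. The means were 48.4 ± 19.7 and 49.3 ± 2.73 TPM (± SD of 3 clones), a log2 fold change of 0.12 (95% interval −0.62 to 0.86, limma adjusted p = 0.942) and an exact permutation p = 1.0. Without Control 3 the sign was reversed, at −0.26. Among 17 other *Sox* genes only 4 were tested, with a median log2 fold change of −0.15 (−0.50 without Control 3, 0.030 without Control 2) and 0 at an unadjusted p-value under 0.05 in limma, and 9 of the 17 were at or under the floor in every clone. *Sox12*, chosen after its values were seen, had 15.6, 17.8 and 1.36 TPM in control against 3.64, 17.9 and 15.4 TPM in the knockout clones, and like *Sox4* was lowest in Control 3.

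*Pax4* (ENSMUSG00000029706, chromosome 6 from 28442334 to 28449353, minus strand), for a homeodomain repressor of the early β cell lineage, was low. It had 1.38, 0.758 and 0.533 TPM across the control lines (48, 25 and 16 reads), against 0.384, 0.763 and 1.05 TPM across the *Snd1* KO lines (12, 23 and 34 reads). Control 1 was highest and *Snd1* KO 1 lowest, and the groups overlapped. The means were 0.891 ± 0.440 and 0.733 ± 0.335 TPM (± SD of 3 clones), with a log2 fold change of −0.12 (95% interval −0.82 to 0.58, limma adjusted p = 0.934) and an exact permutation p = 0.7. The sign was reversed without Control 1 (0.059) and without *Snd1* KO 1 (0.033).

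*Hes1* (ENSMUSG00000022528, chromosome 16 from 30064384 to 30067796, plus strand) encodes the Notch effector that represses *Neurog3*. It had 12.2, 8.55 and 9.89 TPM across the control lines (200, 133 and 140 reads), against 8.13, 15.9 and 17.2 TPM across the *Snd1* KO lines (120, 226 and 262 reads). *Snd1* KO 2 and *Snd1* KO 3 lay above every control clone and *Snd1* KO 1 lay below every control clone. The means were 10.2 ± 1.85 and 13.7 ± 4.90 TPM (± SD of 3 clones), a log2 fold change of 0.34 (95% interval −0.35 to 1.04, limma adjusted p = 0.758) and an exact permutation p = 0.4. Leaving out *Snd1* KO 1 gave 0.66, whereas the value fell to 0.16 without *Snd1* KO 3, 0.21 without *Snd1* KO 2 and 0.23 without Control 2.

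The Notch pathway around *Hes1* was measured in 28 tested genes of 33. Of these, 17 were higher and 11 lower in *Snd1* KO clones, with a median log2 fold change of 0.06 against 0.04 for all tested genes, and 0 passed an unadjusted p-value under 0.05 in limma. All *Snd1* KO clones were above all control clones for 4 of the 28 genes (9.69% of all tested genes), and below them for 0. The 4 genes, listed after their values were seen, were the ligand *Jag1* (log2 fold change 0.53), the effectors *Hes5* (0.44) and *Hey2* (0.55) and the coactivator *Maml3* (0.07). The ligand *Dll1*, which like *Hes1* was highest in *Snd1* KO 2 and *Snd1* KO 3, had 4.11, 4.33 and 2.93 TPM in control against 4.02, 8.05 and 10.5 TPM in the knockout clones (log2 fold change 0.76, limma adjusted p = 0.607). It too was singled out after its values were seen.

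*Gast* (ENSMUSG00000017165, chromosome 11 from 100334407 to 100336996, plus strand) encodes gastrin, a peptide hormone of the fetal pancreas. It had 25.0, 20.4 and 55.3 TPM across the control lines (66, 51 and 126 reads). Across the *Snd1* KO lines the levels were 35.4, 4.81 and 2.85 TPM (84, 11 and 7 reads). *Snd1* KO 2 and *Snd1* KO 3 were below every control clone, while *Snd1* KO 1 lay within the control range. The control mean was 8.76 times the mean of *Snd1* KO 2 and *Snd1* KO 3, and *Snd1* KO 1 had 9.32 times the read rate of those clones (95% exact interval 5.55 to 16.5). Group means were 33.6 ± 19.0 and 14.4 ± 18.2 TPM (± SD of 3 clones), with a log2 fold change of −1.76 (SE 0.85, 95% interval −3.78 to 0.26, limma adjusted p = 0.608) and p = 0.3 in the exact permutation test. Leaving out *Snd1* KO 1 gave −2.74, and leaving out *Snd1* KO 3 gave −1.12. With clones weighted by estimated quality, which gave *Snd1* KO 1 a weight of 0.286 and *Snd1* KO 3 a weight of 3.91, it was −2.40 and the adjusted p was 0.0285 in limma, the lowest over all alternatives, which ranged up to 0.983.

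*Cck*, the gene of the related peptide cholecystokinin, had 2368, 3174 and 1803 TPM in control against 1041, 397 and 987 TPM in the knockout clones. The groups did not overlap, and the means were 2448 ± 689 and 808 ± 357 TPM (± SD of 3 clones), a log2 fold change of −1.68 (SE 0.41, limma adjusted p = 0.556). Of the gastrin and cholecystokinin receptors, *Cckbr* had between 0.0895 and 4.03 TPM with the highest level in *Snd1* KO 1, and *Cckar* was under the filter. Among the 9 related urocortin and gastrin genes 4 were tested, 2 higher and 2 lower, with a median of 0.13. *Cck* alone had an unadjusted p-value under 0.05 in limma, where 2.33% of all tested genes were lower at this limit. The 2 lower genes, *Cck* and *Crhr1*, had all *Snd1* KO clones below all control clones (4.03% of all tested genes).

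*Cd81* (ENSMUSG00000037706, chromosome 7 from 143052739 to 143067934, plus strand) encodes a tetraspanin of the cell surface found on immature and stressed β cells. It had 3.71, 6.28 and 0.172 TPM across the control lines (125, 201 and 5 reads). Across the *Snd1* KO lines the levels were 3.42, 22.9 and 8.13 TPM (104, 669 and 255 reads). Control 3 was almost without *Cd81*, *Snd1* KO 2 was highest, and *Snd1* KO 1 lay below Control 1. The highest clone had 133 times the TPM of the lowest, and the read rate of the next lowest clone was 19.9 times that of Control 3 (95% exact interval 8.28 to 62.7). Group means were 3.38 ± 3.06 and 11.5 ± 10.1 TPM (± SD of 3 clones), a log2 fold change of 1.53 (95% interval −0.47 to 3.52, limma adjusted p = 0.649) that was 0.76 without Control 3 and 2.11 without *Snd1* KO 1, with p = 0.3 in the exact permutation test. Of 25 genes for other tetraspanins and partners of CD81, 19 were tested, 6 higher and 13 lower, where 57.3% of all tested genes were higher. The median was −0.14, with values from −0.73 to 0.26. An unadjusted p-value under 0.05 in limma was reached by 1 lower gene (2.33% of all tested genes) and 0 higher genes (5.63%). All *Snd1* KO clones were below all control clones for 1 gene (4.03% of all tested genes). *Cd9*, another tetraspanin gene, had between 75.0 and 155 TPM.

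**Figure D3:**
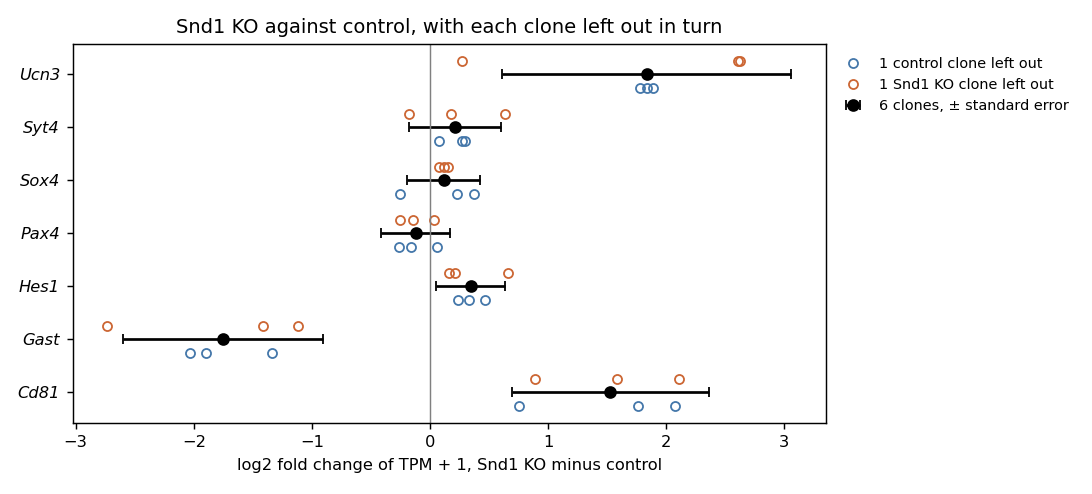
Log2 fold change of TPM + 1, *Snd1* KO minus control, for the 7 tested genes. Black points and bars are the values over 6 clones ± standard error, and open circles the values with 1 control clone (blue) or 1 *Snd1* KO clone (orange) left out. *Ucn3* is 1.84 over all clones and 0.27 without *Snd1* KO 1, and *Syt4*, *Sox4* and *Pax4* have values on both sides of 0.

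The genes beside *Ucn3*, *Gast* and *Cd81* on the chromosome were examined next, a comparison chosen after the values were seen. The nearest tested protein-coding gene on each side, within 250 kb, was taken. Beside *Ucn3*, *Net1* (22.5 kb away) had 30.3 TPM in *Snd1* KO 1 and between 23.1 and 42.3 TPM in the other clones, and *Akr1c14* (104 kb) was lowest in *Snd1* KO 1, with 11.5 TPM. Beside *Gast*, *Eif1* (12.3 kb) had between 383 and 668 TPM and *Hap1* (10.3 kb) between 155 and 217 TPM. Both lay in the same range in *Snd1* KO 2 and *Snd1* KO 3 as in the other clones. Beside *Cd81*, *Trpm5* (1.22 kb) had between 14.5 and 22.2 TPM with 19.1 TPM in Control 3, and *Th* (122 kb) was lowest in *Snd1* KO 1, with 21.9 TPM against 109 TPM in Control 3. No neighbor shared the high level of *Ucn3* in *Snd1* KO 1, the low levels of *Gast* in *Snd1* KO 2 and *Snd1* KO 3 or the low level of *Cd81* in Control 3, although *Th*, like *Cd81*, was higher in *Snd1* KO 2 and *Snd1* KO 3 than in the other clones.

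**Figure D4:**
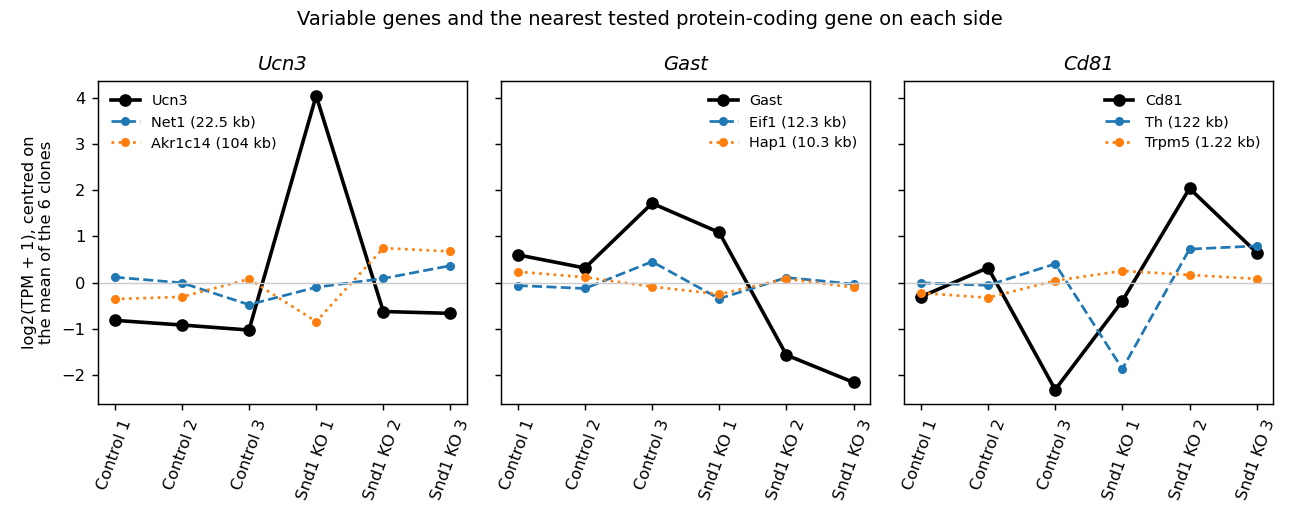
*Ucn3*, *Gast* and *Cd81* (black) with the nearest tested protein-coding gene on each side (colored, distance in kb), as log2(TPM + 1) minus the mean of the 6 clones. The black lines span 5.06, 3.87 and 4.35, and the neighbors do not follow the peak of *Ucn3* in *Snd1* KO 1, the fall of *Gast* in *Snd1* KO 2 and *Snd1* KO 3 or the dip of *Cd81* in Control 3.

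Of the 10 genes, 4 are overlapped by another annotated gene on the opposite strand, and since it is not given whether counting used strand, their reads cannot be fully told apart. The antisense gene *Gm26658* at *Syt4* had at most 0.775 TPM and *Gm26735* at *Sox4* at most 1.52 TPM. At *Cd81*, *R74862* had 15, 9 and 11 reads across the control lines against 12, 40 and 20 for the knockout lines, highest in *Snd1* KO 2 and *Snd1* KO 3 as *Cd81* was, but not low in Control 3. *Fam241b*, which spans *Neurog3*, had between 2.69 and 3.69 TPM.

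Levels of different genes can be compared only per length, and the deposited TPM values divide by the summed length of all transcripts of a gene. With each exonic base counted once, the median TPM over the 6 clones was 203 for *Syt4*, 31.7 for *Sox4*, 14.2 for *Gast*, 9.70 for *Hes1*, 6.38 for *Cd81*, 2.00 for *Pax4* and 0.347 for *Ucn3*, and at most 0.0143 for *Sox9*, *Aldh1a3* and *Neurog3*. *Syt4* was above every other gene of the set in each clone, and *Hes1* was above *Pax4* in each clone. The other neighbors among these 7 genes changed places in at least 1 clone. *Sox4* was above *Gast* in 5 of 6 clones, *Gast* above *Hes1* in 4, *Hes1* above *Cd81* in 4, *Cd81* above *Pax4* in 5 and *Pax4* above *Ucn3* in 5. *Ucn3* ranged from 0.172 to 26.2 TPM on this scale, so its place in the order depends on the clone.

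Related genes were then counted by list, and none of them passed an adjusted p-value under 0.05 in limma. Of 18 other β cell maturity genes, all tested, 10 were higher and 8 lower in *Snd1* KO clones, with a median log2 fold change of 0.05 against 0.04 for all tested genes. Without adjustment, 2 higher and 2 lower genes had a p-value under 0.05, against 5.63% and 2.33% of all tested genes. *Slc30a8*, the zinc transporter of insulin granules, had 215, 191 and 744 TPM in control against 809, 1005 and 779 TPM in the knockout clones (log2 fold change 1.45, limma adjusted p = 0.585). The channel gene *Trpm5* followed with 0.34 and *Glp1r*, the GLP-1 receptor gene, with −0.96. The other lower gene, *Slc2a2* for the glucose transporter GLUT2, was named after its values were seen and had a log2 fold change of −1.27, with groups that overlapped. Among 12 genes of immature β cells 10 were tested, 5 higher and 5 lower, with 1 higher and 3 lower at an unadjusted p-value under 0.05 (5.63% and 2.33% of all tested genes). *Dlk1*, an imprinted gene for a Notch-like ligand, had 14.3, 15.0 and 9.09 TPM in control against 0.0289, 1.54 and 0 TPM in the knockout clones (log2 fold change −3.30, standard error 0.41, limma adjusted p = 0.238). The imprinted gene *Nnat*, for neuronatin, had a value of 0.78, and *Cck*, given above with gastrin, of −1.68. The third lower gene was *Npy*, for neuropeptide Y, with −0.98, and was named after its values were seen.

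Of the endocrine progenitor genes other than *Neurog3*, *Sox4* and *Pax4*, 21 of 25 were tested, 15 higher and 6 lower, with a median log2 fold change of 0.28. An unadjusted p-value under 0.05 was reached by 4 higher and 0 lower genes, where all tested genes gave 5.63% and 2.33%. *Neurod1*, a direct target of NEUROG3 that stays on in mature β cells, had 399, 382 and 355 TPM in control against 556, 676 and 726 TPM in the knockout clones, with means of 379 ± 21.8 and 653 ± 87.3 TPM (± SD of 3 clones) and a log2 fold change of 0.78 (SE 0.14, limma adjusted p = 0.372). *Pax6*, a homeodomain factor of endocrine cells, had a log2 fold change of 0.51. The other two, named after their values were seen, were *Isl1* (0.33) and *Rfx6* (0.86), and all 4 are also expressed in mature β cells. *Neurog3* itself had 1 read in all clones together. The list median stayed between 0.20 and 0.37 under all 14 alternatives.

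The remaining lists had medians between 0.01 and 0.13. For pancreatic progenitors, 10 of 20 genes were tested, with 7 higher, 3 lower and a median of 0.09, and 4 of the 20 were at or under the floor in every clone. *Klf4*, *Lin28a*, *Lin28b* and *Myc* were the 4 tested genes of 8 linked to pluripotency (median 0.13), and *Pou5f1* and *Sox2* were at 0. Disallowed genes, which β cells normally keep silent, numbered 12 tested of 22, with 6 in each direction and a median of 0.01. Among these *Nfib* had a log2 fold change of 1.45, *Pdgfra* of −2.89 and *Igfbp4* of −1.27. Around *Aldh1a3*, 12 of 21 retinaldehyde and retinoic acid genes were tested, 6 in each direction, and the related dehydrogenase gene *Aldh1b1* had 25.1, 24.3 and 27.6 TPM in control against 17.7, 21.6 and 20.9 TPM in the knockout clones (log2 fold change −0.34, limma adjusted p = 0.594). *Rdh11*, a retinal reductase gene, had 0.66 and *Rbp4*, for the retinol carrier of blood, −2.44.

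**Figure D5:**
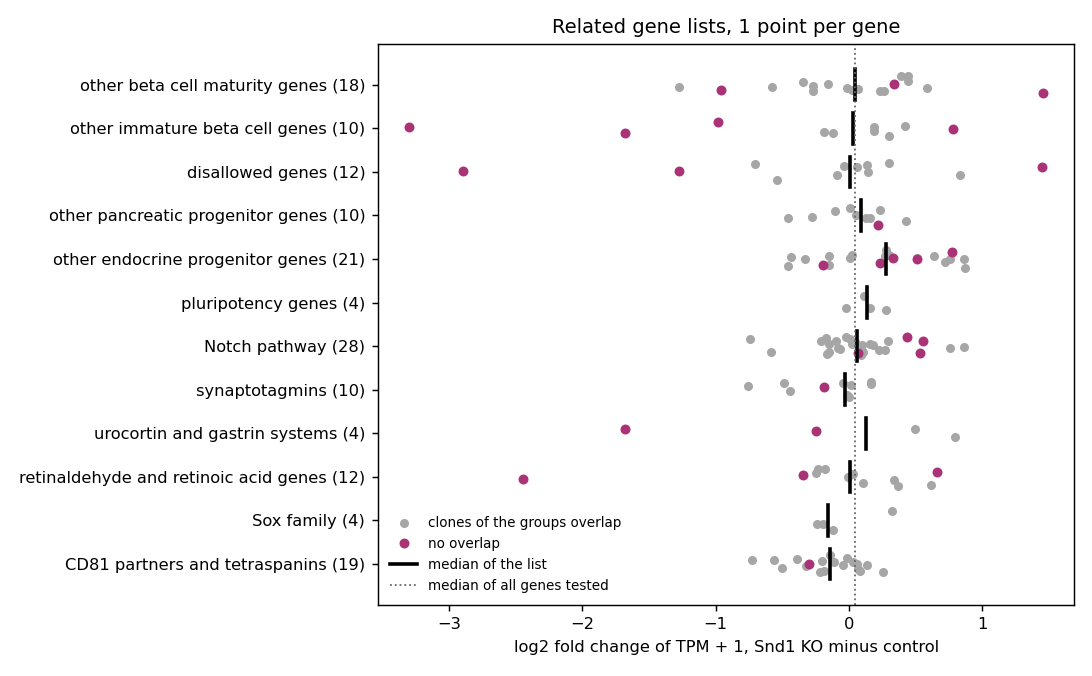
Log2 fold change of TPM + 1, *Snd1* KO minus control, for each tested gene of 12 related lists (number tested in parentheses). Purple points are genes whose control and *Snd1* KO clones do not overlap, thick bars are list medians, and the dotted line is the median of all tested genes (0.04). The endocrine progenitor list has the highest median (0.28), and single genes such as *Dlk1* (−3.30) lie far out on either side.

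Markers of other cell types were compared with the same clones. The summed duct list was 4.60, 2.88 and 74.6 TPM in control against 88.6, 78.5 and 46.2 TPM in the knockout clones, of which nearly all was *Krt7*, with *Krt19*, *Sox9* and *Cftr* at or near 0. Fibroblast markers summed to between 0.176 and 4.34 TPM. The α cell list summed to between 3207 and 9018 TPM in *Snd1* KO clones compared with 14531 to 20385 TPM in control, a sum carried by *Ttr*. Of its 3 tested genes 2 were lower and 1 higher, the latter being *Slc7a2* (log2 fold change 0.56, without overlap of the groups). The δ cell list was between 4.32 and 10.3 compared with 24.4 to 40.2 TPM, of which most was *Rbp4* except in *Snd1* KO 1, where *Rbp4* had 1.07 TPM. *Krt7* was high in the clones where *Cd81* was lowest (Control 3) and highest (*Snd1* KO 2), and the part of any such marker in the levels of the 10 genes was not tested. In RNA from a whole culture, fewer cells that express a gene and less RNA per cell cannot be told apart.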

How the data were processed

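RNA of 6 MIN6 clones (3 control, 3 *Snd1* KO) was converted to Nextera libraries and sequenced as paired ends on an Illumina instrument. Reads were processed by the authors with the Genialis software, and the deposited values are TPM per Ensembl gene for 1 library of each clone. The submitters' processing notes name FastQC, Trimmomatic, HISAT2, HTSeq, DESeq2 and build mm10 without versions; the annotation and strand setting are not given in the sources used here.

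Of 53900 rows, 99 were spike-in controls, none above 1.02 TPM, and were not used. Among the 53801 mouse identifiers, 53620 were found in GENCODE M21 (GRCm38). TPM times the summed exon length of all transcripts came out as multiples of a single step in a clone, and 99.6% of values above 0 were whole within 0.01 once the length of 1505 genes had been searched. These recovered reads gave the depth and counting intervals, and whether a step is a read or a pair is not given. The paper reports fewer reads per library than the steps recovered on genes here, and the reason was not tested. The intervals and the floor of detection take each step as an independent count. If both reads of a pair were counted, the intervals are too narrow and the floor stands for fewer pairs than reads.

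Genes averaging 0.5 TPM or more were compared as log2(TPM + 1), which understates changes of low genes, with limma 3.58.1 (eBayes with trend, R 4.3.3) and Benjamini-Hochberg adjustment over 17823 genes. Single genes were also compared by exact two-sided permutation of the clones. The threshold was an adjusted p-value under 0.05 with a 2-fold change. Ratios of read rates carry exact conditional 95% intervals. Python 3.11.15 with pandas 2.3.3, scipy 1.17.1 and matplotlib 3.10.9 served for the rest. The fit was tested on simulated data.

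The 10 genes, the related lists and the marker lists were chosen with earlier results of these data known. For the 10 genes the rule went by known roles and used no measured value. Named were the 10 genes, from each related list up to 2 genes per direction with the largest log2 fold change among those with groups that do not overlap and an unadjusted p-value under 0.05, the 3 nearest profiles for *Ucn3*, *Syt4* and *Aldh1a3*, *Snd1* and β cell markers. Further genes, taken from the related and marker lists or from beside the 10 genes, were given with their values already seen. The alternatives were a pseudocount of 0.1, no filter, a filter at 5 TPM, quantile normalization, median ratio scaling, clone quality weights, a replicate block, each clone left out, and voom on the recovered reads, which was added after the data were seen.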

Additional observations from a re-analysis of the deposited data

How the results depend on the processing

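The direction of *Ucn3*, *Hes1*, *Gast* and *Cd81* was the same under all 14 alternatives, but the size was not. Log2 fold changes ran from 0.27 to 2.70 for *Ucn3*, 0.16 to 0.66 for *Hes1*, −2.74 to −1.12 for *Gast* and 0.76 to 2.25 for *Cd81*. None of the 7 genes passed the adjusted threshold except *Gast* with clone quality weights (−2.40). *Syt4* was reversed without *Snd1* KO 1 (−0.18, up to 0.63 with another clone left out), *Sox4* with weights (−0.21) and without Control 3 (−0.26, up to 0.37 with another clone left out), and *Pax4* without Control 1 (0.059) and without *Snd1* KO 1 (0.033, down to −0.26 with another clone left out and to −0.31 with voom). The count of genes called, 1, was 0 without a filter, with the replicate block by clone number and with voom, 895 with weights (525 higher, 370 lower), and 0 to 1 with a clone left out. Clones of the 2 groups share only a number: deviations of same-numbered clones correlated at 0.115, −0.199 and −0.108 over 11368 genes, and with the block the 7 genes kept their fold changes and their side of the threshold. The 400 genes at an unadjusted p-value under 0.05 and a 2-fold change (271 higher, 129 lower) became 172 at a mean of at least 5 TPM, 1309 with weights, 700 with voom, and 281 to 815 with a clone left out (815 without Control 3, 770 without *Snd1* KO 1), and quantile normalization split them into 187 higher and 183 lower. Median log2 fold changes of lists moved by more than their spread between clones for the immature β cell genes (−0.12 without a filter, 0.19 at 5 TPM, −0.11 with weights, −0.13 to 0.13 with a clone left out), the pluripotency genes (0.0088 to 0.32 with a clone left out), the Notch pathway (−0.025 at 5 TPM, 0.0040 after quantile normalization, 0.017 with median ratio scaling, 0.041 to 0.11 with a clone left out) and the urocortin and gastrin systems (0.41 with a pseudocount of 0.1, −0.96 at 5 TPM, 0.53 with voom, −0.079 to 0.26 with a clone left out). The *Sox* median, within its wide spread between clones, ran from −0.50 without Control 3 to 0.32 at 5 TPM. The median of all tested genes moved alike under the scalings, from 0.04 to −0.011 after quantile normalization and 0.0074 with median ratio scaling. Fewer genes were tested at 5 TPM, where the *Sox* value is of 1 gene and the urocortin and gastrin value of 2. Without a filter the immature β cell list held 11 genes in place of 10. For the other shifts the cause was not tested. Depth limits *Aldh1a3*, *Neurog3* and *Sox9*, and counting error is large for *Ucn3* outside *Snd1* KO 1.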
